A study of Mus musculus with 4 samples.

Results

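The 7 genes described here are Hmgcs1, Idi1, Fdft1, Sqle, Cyp51, Dhcr7 and Insig1, taken by symbol from the 22558 symbols that each library listed. Of these, 6 encode enzymes of cholesterol synthesis, from the condensation that makes HMG-CoA to the last reduction that yields cholesterol. The remaining gene, Insig1, encodes a sterol-sensing regulator of the pathway. No gene of cholesterol uptake is among the 7, so uptake genes are described as a separate group. Retinas came from Fezf2 knockout (KO) mice (genotype Fezf2KO) and from wildtype control littermates, all on a background given as C57/BL/6J. They were taken at postnatal day 14 (P14) and postnatal day 7 (P7). Fezf2 encodes a zinc-finger transcription factor, and its role in retinal development was the question of the study. The labels do not say how the allele was made, of which sex the mice were or how many were pooled. There was 1 library for each of KO P14, control P14, KO P7 and control P7, so no group had a replicate.

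Cholesterol is built from acetyl-CoA through mevalonate, squalene and lanosterol. When sterols in the endoplasmic reticulum fall, SCAP escorts the transcription factor SREBP2 to the Golgi, where it is cut free to switch on genes of sterol synthesis and uptake. Insig proteins hold SCAP back when sterols are plentiful, and Insig1 is itself an SREBP target, which closes a feedback loop. In the retina, Mueller glia and neurons make cholesterol locally, photoreceptors need it for outer segment membranes, and lipoprotein uptake, mainly through the pigment epithelium, adds to the supply.

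Promoter sequences are shown because the 7 genes are textbook SREBP targets and yet differed from each other with age. RefSeq promoter windows (build GRCm38.p6, 250 bases before to 50 after the start, printed 5′ to 3′ on the gene's strand) were found for 5 of the 7 genes. Dhcr7 had several, which gave 7 windows in all. Capitals mark matches on either strand to TCACNCCAC, a consensus form of the sterol regulatory element that SREBP binds, or to the CCAAT box. The CCAAT box reads ATTGG on the opposite strand and is bound by NF-Y. A match to TCACNCCAC was found in 1 of the 7 windows, that of Hmgcs1 at position -137 from the start. It was found in 1.24% of all 32851 windows. Sites that differ from these letters were not searched for, so the other windows are not shown to lack such a site. A CCAAT box was found in 5 of the 7 windows and in 37.4% of all windows. Windows are printed for Hmgcs1, which holds the match, for Idi1 and Insig1, whose levels rose with age, and for Cyp51, whose level did not.
Hmgcs1, chr13:119690101-119690400, plus strand: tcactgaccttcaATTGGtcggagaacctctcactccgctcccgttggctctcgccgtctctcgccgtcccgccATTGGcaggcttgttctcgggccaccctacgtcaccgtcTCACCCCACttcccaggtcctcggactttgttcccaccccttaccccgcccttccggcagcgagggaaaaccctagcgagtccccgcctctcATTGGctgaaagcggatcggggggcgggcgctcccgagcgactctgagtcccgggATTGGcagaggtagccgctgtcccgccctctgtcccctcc
Idi1, chr13:8885356-8885655, plus strand: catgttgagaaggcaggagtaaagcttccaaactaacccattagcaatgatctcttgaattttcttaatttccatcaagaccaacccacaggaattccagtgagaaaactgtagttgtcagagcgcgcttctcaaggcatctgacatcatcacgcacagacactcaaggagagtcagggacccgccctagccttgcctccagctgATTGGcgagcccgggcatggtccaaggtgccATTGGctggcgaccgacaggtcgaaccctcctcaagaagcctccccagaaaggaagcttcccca
Insig1, chr5:28071162-28071461, plus strand: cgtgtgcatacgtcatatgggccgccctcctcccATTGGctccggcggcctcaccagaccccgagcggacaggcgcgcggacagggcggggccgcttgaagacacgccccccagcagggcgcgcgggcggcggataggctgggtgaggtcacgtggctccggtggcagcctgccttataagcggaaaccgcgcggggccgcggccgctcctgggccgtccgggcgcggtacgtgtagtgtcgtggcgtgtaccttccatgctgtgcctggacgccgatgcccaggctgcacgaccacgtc
Cyp51, chr5:4104648-4104947, minus strand: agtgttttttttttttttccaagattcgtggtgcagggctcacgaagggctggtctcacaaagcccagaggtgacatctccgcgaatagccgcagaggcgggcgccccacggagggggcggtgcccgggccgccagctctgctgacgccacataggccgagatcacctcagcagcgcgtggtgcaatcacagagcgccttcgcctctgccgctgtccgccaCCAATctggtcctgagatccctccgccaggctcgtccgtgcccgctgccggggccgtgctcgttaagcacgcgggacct
These matches describe letters within the windows and show no binding.

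Levels are FPKM, fragments per kilobase of transcript scaled to the mapped depth of the library, each deposited with a lower and an upper bound. Read as counting error alone, the widths of the bounds gave rough fragment totals. These were about 12400000 in KO P14, 9280000 in control P14, 11600000 in KO P7 and 11900000 in control P7. Such bounds hold the error of counting but not differences between mice, and reads copied by PCR are not independent molecules. A level lay above its own upper bound at 1809 to 2243 loci a library, so bounds were compared with bounds. None of the 7 genes was among these, but Apoe and Fdps were in all 4 libraries, and Thrsp, Tmem97 and Nr1h2 in some. Levels are called apart below where their bounds did not overlap. As a check of the labels, Fezf2 stood at 0.126 and 4.02 FPKM in KO and control libraries at P14, and at 0.592 and 8.32 FPKM in those at P7. Rod markers summed to 23795 and 22066 FPKM over 10 genes in KO and control P14 libraries, and to 6240 and 6104 FPKM in KO and control P7 libraries.

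All 7 genes were expressed at 10 FPKM or more in every library. With its 2 loci summed, Hmgcs1 was the highest of the 7 in each library. Its bounds were then apart from those of the next gene each time. Insig1 ranked next in 3 of the 4 libraries. In the control P7 library Insig1 stood level with Sqle, both at 20.2 FPKM with overlapping bounds. Either Hmgcs1 locus alone stood at 19.8 FPKM in KO P14 and 23.5 FPKM in control P14, below Insig1 and Fdft1. At P7 it stood at 22.5 FPKM in KO, level with Insig1, and at 23.3 FPKM in control retina. The rank of Hmgcs1 at P14 thus rests on the sum, and how reads shared by both loci were counted was not given. The lowest was Cyp51 in both P14 libraries and Idi1 in both P7 libraries. At P7, Dhcr7, Cyp51, Fdft1 and Idi1 were the 4 lowest in both genotypes, and each overlapped the next of these 4, while Dhcr7 was apart from the gene above it. By P14 Fdft1 was in the third place in both genotypes, overlapping Insig1 above it in KO only. Over the 4 libraries the 7 genes lay above 70.9% to 93.1% of the genes, with small RNAs, short loci and failed levels left out.

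From P7 to P14, 3 of the 7 genes rose and the other 4 did not pass the test. Fdft1, squalene synthase, which commits farnesyl diphosphate to sterols, stood at 26.9 FPKM in KO and 26.3 FPKM in control retina at P14, against 11.5 FPKM in KO and 14.0 FPKM in control retina at P7. Insig1 stood at 30.7 FPKM in KO and 34.9 FPKM in control retina at P14, against 22.5 FPKM in KO and 20.2 FPKM in control retina at P7. Idi1, which isomerises isopentenyl diphosphate, stood at 16.2 FPKM in KO and 18.6 FPKM in control retina at P14, against 11.01 FPKM in KO and 11.5 FPKM in control retina at P7. For these 3 genes both P14 libraries lay above both P7 libraries, with bounds apart within each genotype.

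**Figure D1:**
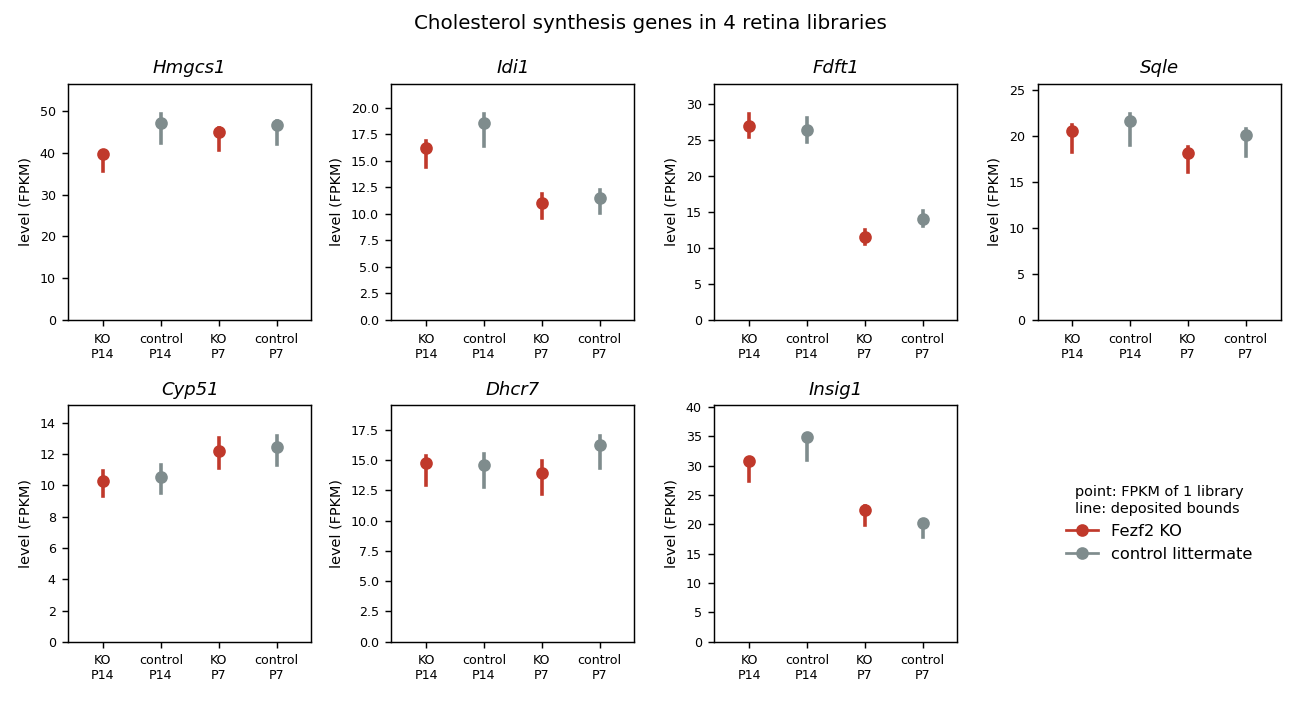
Level in FPKM (vertical axes, from 0) of each of the 7 genes in the KO P14, control P14, KO P7 and control P7 libraries; points are single libraries and lines the deposited bounds. Fdft1, Insig1 and Idi1 are higher in both P14 libraries, whereas Hmgcs1, Sqle, Cyp51 and Dhcr7 differ less between the ages. Hmgcs1 is lowest in KO P14, with bounds apart from those of control P14 and KO P7.

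The test was a limma fit over the 4 libraries with age and genotype as additive terms, on log2(FPKM + 1), in which the genotypes serve as the repeats of the age contrast. It has 1 residual degree of freedom and borrows its spread from other genes. Its p-values do not measure variation between mice of the same group. Age cannot be told apart from any other difference between the P14 and the P7 libraries. Fdft1 rose by 1.01 ± 0.10 on the log2 scale (SE; limma adjusted p = 1.89e-06), Insig1 by 0.60 ± 0.10 (limma adjusted p = 1.22e-04) and Idi1 by 0.58 ± 0.09 (limma adjusted p = 1.23e-04), each higher in 2 of 2 genotypes. Age differences were common in these libraries, and the fit called 30.7% of all 12934 genes higher and 40.6% lower at P14, so 3 of 7 is near the background. By the median ratio of expressed genes the 3972 higher and 5254 lower genes became 4795 and 4335. With no filter on low levels the calls of all 3 genes were lost (limma adjusted p = 0.068 for Fdft1, 0.059 for Idi1 and 0.12 for Insig1, the highest of 8 settings), and under the 7 others they passed. The locus of Fdft1 (mm9 chromosome 14, bases 63763988 to 63796630) shares 771 bases at one end with that of Ctsb, a lysosomal protease gene, and the protocol states no strand marking, so reads from the shared bases cannot be told apart. Ctsb itself stood at 112 FPKM in KO and 113 FPKM in control retina at P14, against 78.2 FPKM in KO and 72.9 FPKM in control retina at P7, and its part in the Fdft1 levels was not tested.

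The other 4 genes did not pass the test of age. Hmgcs1, HMG-CoA synthase, stood at 39.6 FPKM in KO and 47.1 FPKM in control retina at P14, against 45.0 FPKM in KO and 46.5 FPKM in control retina at P7. The KO P14 library was thus the lowest, and its bounds were apart from those of the KO P7 library. The mm9 build places Hmgcs1 at 2 loci on an unplaced part of chromosome 13 (13_random, bases 114710 to 132325 and 308620 to 326235), each copy was listed with the same level in a given library, and the copies were summed. Sqle, squalene epoxidase, stood at 20.5 FPKM in KO and 21.6 FPKM in control retina at P14, against 18.2 FPKM in KO and 20.2 FPKM in control retina at P7. Its bounds overlapped between the ages in both genotypes. Cyp51, the lanosterol demethylase, stood at 10.3 FPKM in KO and 10.5 FPKM in control retina at P14, against 12.2 FPKM in KO and 12.4 FPKM in control retina at P7. Both P14 levels were below both P7 levels, with bounds apart in the KO only. Dhcr7, which reduces 7-dehydrocholesterol to cholesterol, stood at 14.7 FPKM in KO and 14.6 FPKM in control retina at P14, against 13.9 FPKM in KO and 16.2 FPKM in control retina at P7. All 4 Dhcr7 levels overlapped in their bounds for each comparison of age or genotype.

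In the limma fit the age difference of Cyp51 was -0.22 ± 0.09 (SE; limma adjusted p = 0.0505), just outside the threshold of 0.05, and that of Sqle was 0.13 ± 0.09 (limma adjusted p = 0.19). Hmgcs1 had -0.08 ± 0.08 (limma adjusted p = 0.38) and Dhcr7 -0.04 ± 0.10 (limma adjusted p = 0.76). The median gene differed by -0.09 on the log2 scale in KO and -0.08 in control retina. A rescaling by the median ratio of expressed genes adds 0.12 to the age differences in KO and 0.13 to those in control retina, under which Sqle was called higher (0.25, limma adjusted p = 0.019, with a range of 0.019 to 0.57 over 8 settings). On a TPM scale, and under 2 other settings of the fit, Cyp51 was called lower (-0.30 on the TPM scale, limma adjusted p = 0.016, with a range of 0.016 to 0.34 over 8 settings).

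Within a single genotype, counted by bounds, Idi1, Fdft1 and Insig1 were higher at P14 in KO retina and Hmgcs1 and Cyp51 lower, where 68.4% of 13044 genes were apart, 29% upward and 39.4% downward. In the control retina the same 3 genes were higher and 0 of the 7 lower, where 65.3% of 13112 genes were apart, 27.6% upward and 37.7% downward. Whatever the size, 5 of the 7 levels were higher at P14 and 2 lower in each genotype, against 45% higher and 55% lower among all genes in KO, and 44.7% higher and 55.3% lower in control. On a TPM scale Hmgcs1 in control and Dhcr7 in KO turned from higher to lower. The median log2 difference of the 7 genes was 0.17 in KO and 0.10 in control retina, and it was 0.09 in KO and 0.03 in control on a TPM scale and 0.29 in KO and 0.22 in control by the median ratio.

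The rest of the pathway was divided too. Of 21 synthesis enzymes, the 6 included, limma called 9 higher and 3 lower at P14, and 9 passed in neither direction. Of all genes, 30.7% were called higher and 40.6% lower. Pmvk, phosphomevalonate kinase, stood at 34.3 FPKM in KO and 36.03 FPKM in control retina at P14, against 17.97 FPKM in KO and 21.9 FPKM in control retina at P7 (log2 difference 0.80 ± 0.09, limma adjusted p = 5.66e-06). Farnesyl diphosphate synthase, Fdps, rose by 0.71 and the C4-methylsterol oxidase gene, listed as Sc4mol, by 0.76. Ebp, the sterol isomerase, rose by 0.90, Sc5d by 0.48 and Tm7sf2 by 0.42. Among those that fell were Acat2, which makes acetoacetyl-CoA, by 0.40 and Lbr, a nuclear envelope protein with sterol reductase activity, by 0.66. At the start of the pathway Acat2 was thus lower and Hmgcs1 did not pass, while between mevalonate and squalene Pmvk, Idi1, Fdps and Fdft1 were higher and Mvk (0.09) and Mvd (-0.08) did not pass. Summed over the 21 enzymes, the level was 382 FPKM in KO and 397 FPKM in control retina at P14, against 310 FPKM in KO and 338 FPKM in control retina at P7.

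**Figure D2:**
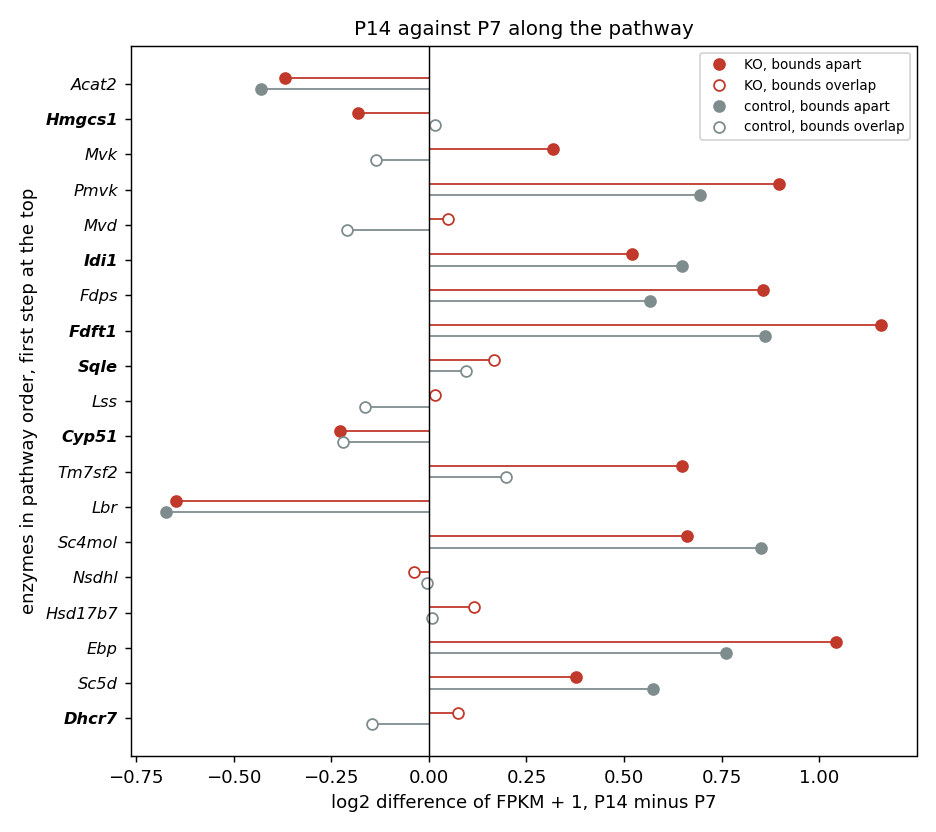
Log2 difference of FPKM + 1, P14 minus P7 (horizontal axis), for 19 of the 21 enzymes in pathway order, in KO and the control retina, 1 library per age and genotype; filled points have bounds apart, and the 6 enzymes among the 7 genes are in bold. Fdft1 has 1.16 in KO and 0.86 in control retina, whereas Acat2 and Lbr lie to the left of 0 in both.

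A group of 10 SREBP regulators held genes of SREBP processing and also Srebf1 and Srebf2, the SREBP genes themselves. Limma called 7 of these 10 lower, Srebf1 among them, and 1 higher at P14, against 40.6% and 30.7% of all genes. The gene called higher was Insig2, the paralog of Insig1, at 21.5 FPKM in KO and 23.2 FPKM in control retina at P14, against 13.1 FPKM in KO and 13.05 FPKM in control retina at P7 (0.73 ± 0.09, limma adjusted p = 1.48e-05). Both Insig genes therefore rose with age. Srebf2, which encodes SREBP2, stood at 27.5 FPKM in KO and 27.4 FPKM in control retina at P14, against 29.4 FPKM in KO and 30.7 FPKM in control retina at P7 (-0.13 ± 0.08, limma adjusted p = 0.18). Srebf1, the gene of SREBP1, fell by 1.40 (limma adjusted p = 2.10e-08). The protease genes Mbtps1 and Mbtps2, whose products cut SREBP, fell by 0.73 and 0.80, and the escort gene Scap by 0.35.

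Of 15 genes of uptake and intracellular transport, 14 entered the fit, 2 were called higher and 6 lower at P14, against 30.7% and 40.6% of all genes. The lipoprotein receptor genes Lrp8 and Lrp1 fell by 2.27 and 1.51. Npc1, which moves cholesterol out of lysosomes, fell by 0.38 (limma adjusted p = 0.00313), and the HDL receptor gene Scarb1 by 0.34. Tmem97 and Vldlr rose by 0.60 and 0.21.

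Efflux and oxysterol genes moved in both directions. Abca1, the main exporter of cholesterol to apolipoproteins, stood at 2.74 FPKM in KO and 2.07 FPKM in control retina at P14, against 30.0 FPKM in KO and 27.5 FPKM in control retina at P7 (-3.13 ± 0.10, limma adjusted p = 2.56e-10). Abcg1 fell by 1.01, whereas Apoe, the glial apolipoprotein gene, rose by 0.85 and Cyp27a1, a sterol hydroxylase gene of the retina, by 1.55. Cyp27a1 was low, at 2.04 FPKM in KO and 2.61 FPKM in control retina at P14. At P7 it was under 1 FPKM, at 0.197 FPKM in KO and 0.0705 FPKM in control retina. Nceh1, Abcg4 and Nr1h2 also rose, which made 5 of the 10 fitted genes higher and 2 lower. Among 10 lipogenic genes under SREBP1, 5 were called higher and 4 lower. Both lists stand against 30.7% higher and 40.6% lower among all genes. Of the lipogenic genes, Thrsp was up by 2.71 and Fasn, fatty acid synthase, down by 1.89. Acaca and Scd2 fell by 0.96 and 1.12, and Acss2 rose by 0.57.

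**Figure D3:**
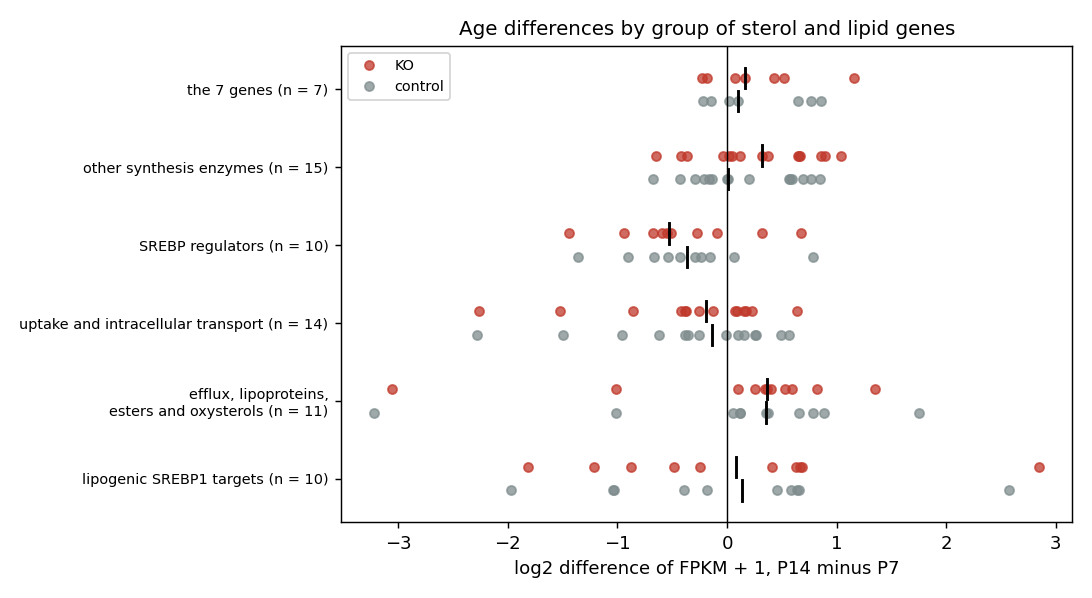
Log2 difference of FPKM + 1, P14 minus P7 (horizontal axis), for genes of 6 groups at 1 FPKM or more in any library, in KO and the control retina, 1 library per age and genotype; points are genes and black bars group medians. The SREBP regulators, a group that includes Srebf1 and Srebf2, centre left of 0, at -0.53 in KO and -0.36 in control retina. The 7 genes centre slightly right of 0, at 0.17 and 0.10.

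Cell type markers moved with age too. Mueller glia markers summed to 3052 FPKM in KO and 2923 FPKM in control retina at P14, against 1244 FPKM in KO and 1179 FPKM in control retina at P7, with 8 of 10 genes called higher and 2 lower. For rods 8 of 10 were called higher and 1 lower. Of all genes, 30.7% were called higher and 40.6% lower. Oligodendrocyte markers, of interest because myelinating cells make much cholesterol, summed to 24.8 FPKM in KO and 23.6 FPKM in control retina at P14, against 36.1 FPKM in KO and 35.0 FPKM in control retina at P7. Most of that sum was Mbp and Cnp, which were both called lower, whereas Mal, the third fitted marker, was called higher (1.19, limma adjusted p = 1.86e-06). Mobp was at 0.032 FPKM or less in all 4 libraries, and Olig2 was at 0 in both at P14. The part of these cell types in the age differences was not tested. In bulk retina, fewer cells of a type and less RNA per cell cannot be told apart.

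Between the genotypes at P14, 2 of the 7 genes were apart, both lower in KO retina. Hmgcs1 had 39.6 FPKM in KO (bounds 35.7 to 40.4) and 47.1 FPKM in control retina (bounds 42.3 to 49.1), a log2 difference of -0.24. Insig1 had 30.7 FPKM in KO (bounds 27.4 to 30.9) and 34.9 FPKM in control retina (bounds 30.9 to 35.0), a log2 difference of -0.18, so its bounds missed each other narrowly. Among all 12804 genes 15.7% were apart, 8.24% lower and 7.45% higher. Idi1 (-0.19), Sqle (-0.07), Cyp51 (-0.03), Fdft1 (0.03) and Dhcr7 (0.01) had overlapping bounds. On a TPM scale the signs of Fdft1 and Dhcr7 turned, and by the median ratio that of Dhcr7.

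At P7, 1 of the 7 genes was apart, also lower in KO retina. Fdft1 had 11.5 FPKM in KO (bounds 10.6 to 12.5) and 14.0 FPKM in control retina (bounds 13.1 to 15.1), a log2 difference of -0.27, where 13.4% of 12665 genes were apart, 6.1% lower and 7.34% higher. This balance of 929 higher and 772 lower genes turned to 675 and 974 on a TPM scale and to 768 and 900 by the median ratio, while at P14 the 954 higher and 1055 lower genes became 644 and 1441, and 763 and 1256. The other 6 genes overlapped, with Dhcr7 at -0.21, Sqle at -0.14, Idi1 at -0.06, Hmgcs1 at -0.05, Cyp51 at -0.03 and Insig1 at 0.15. The level was therefore lower in KO retina for 6 of 7 genes at P7 and for 5 of 7 at P14, and for 4 of 7 at both ages. Of all genes, 47.7% were lower and 52.3% higher at P7, 49.2% lower and 50.8% higher at P14, and 26.1% of 13246 lower at both. With bounds made 1.5 times as wide, 0 of the 7 genes were apart between the genotypes at either age.

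Across the 21 enzymes at P7, 19 of 21 were lower in KO retina and 2 higher, against 47.7% and 52.3% of all genes. The median was -0.13 against 0.01 for all genes. Of the enzymes, 3 were apart at P7, all lower, where 13.4% of all genes were apart, 6.1% lower. They were Fdft1, Pmvk and Tm7sf2. Pmvk stood at 17.97 FPKM in KO and 21.9 FPKM in control retina (-0.27). Tm7sf2 stood at 2.53 FPKM in KO and 4.35 FPKM in control retina (-0.60). At P14, 14 of 21 had a lower level and 7 a higher one, against 49.2% and 50.8% of all genes. The median was -0.06 against 0.00 for all genes. At P14, 3 enzymes were apart and lower and 1 apart and higher, against 8.24% and 7.45% of all genes. Among the lower ones were Hmgcs1 and Sc4mol at 17.9 FPKM in KO and 22.6 FPKM in control retina (-0.32), while mevalonate kinase, Mvk, was higher at 20.1 FPKM in KO and 15.7 FPKM in control retina (0.34). Lower in KO retina at both ages were 13 of 21 enzymes, and 1 was above the control at both. Of all genes, 26.1% were lower at both ages.

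**Figure D4:**
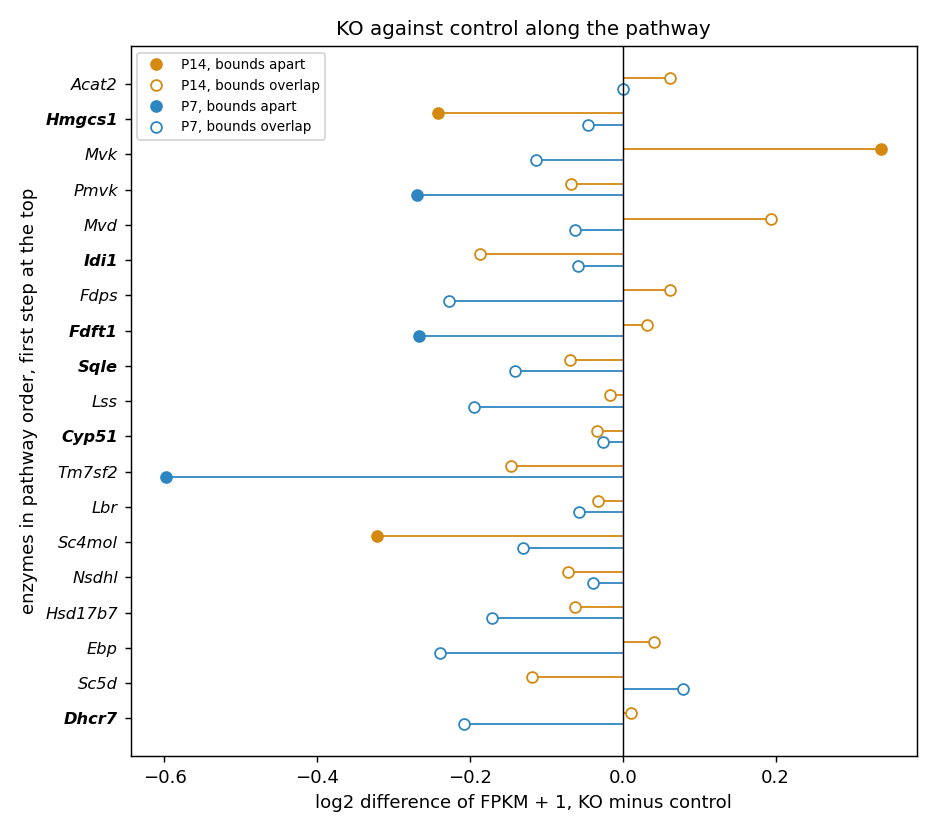
Log2 difference of FPKM + 1, KO minus control (horizontal axis), for 19 of the 21 enzymes in pathway order at P14 and P7, 1 library per genotype and age; filled points have bounds apart, and the 6 enzymes among the 7 genes are in bold. Nearly all P7 points lie left of 0, and Hmgcs1 (-0.24) is apart at P14 and Fdft1 (-0.27) at P7.

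The limma fit called 0 of the 7 genes between the genotypes, with 0 at an unadjusted p below 0.05. Hmgcs1 had -0.14 ± 0.08 (SE; limma adjusted p = 0.64), lower in KO retina at 2 of 2 ages, and Idi1 -0.12 ± 0.09 (limma adjusted p = 0.76). Fdft1, Sqle and Dhcr7 had -0.12, -0.11 and -0.10, Cyp51 -0.03 and Insig1 -0.01, with limma adjusted p-values of 0.78 to 0.99. Among all genes the genotype term called 0 higher and 31 (0.24%) lower, with 1182 of 12934 at an unadjusted p below 0.05. Of the 21 enzymes it called 0, with Tm7sf2 (-0.37) and Sc4mol (-0.23) at an unadjusted p below 0.05 (limma adjusted p = 0.39 and 0.50).

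Of the listed sterol and lipid genes other than the 7, 14 of 60 at 1 FPKM or more were apart between the genotypes at P14, 7 higher and 7 lower, and 13 of 58 at P7, 7 higher and 6 lower, against 15.7% and 13.4% of all genes. At P14 Lipa, the lysosomal acid lipase gene, was lower, at 6.04 FPKM in KO and 7.87 FPKM in control retina (-0.33), as were Erlin2 (-0.18), Elovl6 (-0.17) and Scd2 (-0.16). Higher in KO retina at P14 were Abca1 (0.28), the oxysterol receptor gene Nr1h2 (0.28), Mbtps1 (0.22), Me1 (0.16), Lrp1 (0.15) and Apoe (0.10). At P7 Lipa was higher, at 6.68 FPKM in KO and 5.29 FPKM in control retina (0.29), as were Mylip (0.25), Nceh1 (0.23), Lrp1 (0.18), Apoe (0.17) and Abca1 (0.12). Lower at P7 were Acss2 (-0.28), Lrp8 (-0.14) and Mbtps1 (-0.14). Srebf2 (0.01 and -0.06), Insig2 (-0.10 and 0.01) and Npc1 (0.04 and 0.03) had overlapping bounds at P14 and P7. Limma called 0 of these genes for genotype, with 2 of 14 uptake and transport genes at an unadjusted p below 0.05 and 0 of the regulators, efflux and lipogenic genes.

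Markers of neighbouring tissue and blood differed between the libraries. Markers of lens summed to 3.08 FPKM in KO and 10.4 FPKM in control retina at P14, with Cryba1, Crygd and Crygs at 0 in the KO, and to 11.8 FPKM in KO and 3.39 FPKM in control retina at P7, with Crygs at 0 in the control. Counts of genes apart below are of KO against control, among genes at 1 FPKM or more in either library. Of 3 such lens genes at P14, Cryaa and Cryba1 were apart, both lower. Of 5 at P7, Cryaa, Cryba1, Crygd and Crygs were apart, all higher. The 10 ciliary body, vitreous and connective tissue markers summed to 30.2 FPKM in KO and 91.1 FPKM in control retina at P14. At P7 they summed to 87.1 FPKM in KO and 54.0 FPKM in control retina. Lum was at 0 in every library but KO P7. Of 7 counted at P14, 5 were apart and lower and 1 higher, and of 7 at P7, 5 were apart, all higher. The 10 pigment epithelium markers summed to 120 FPKM in KO and 172 FPKM in control retina at P14. At P7 they summed to 114 FPKM in KO and 99.3 FPKM in control retina. Of 8 counted at P14, 7 were apart, all lower, and of 8 at P7, 2 were apart, both higher. The 6 erythroid markers summed to 356 FPKM in KO and 1180 FPKM in control retina at P14, and to 339 FPKM in KO and 291 FPKM in control retina at P7. Of 5 counted at P14, 5 were apart, all lower, and of 5 at P7, 1 was apart and higher. Immediate early genes summed to 147 FPKM in KO and 82.4 FPKM in control retina at P14, and to 111 FPKM in KO and 113 FPKM in control retina at P7. Of 9 counted at P14, 7 were apart, all higher, and of 8 at P7, 1 was higher and 1 lower. Among all genes 8.24% were apart and lower and 7.45% higher at P14, and 6.1% lower and 7.34% higher at P7. The part of all these markers in the genotype differences was not tested.

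Genes with a profile over the 4 libraries near the median profile of the 7 were sought by Euclidean distance of centred log2 levels. The search took 9112 genes with a mean of 5 FPKM or more. It left out every gene of the sterol, lipid and marker lists, so none of those could be named. Nearest were Agfg1 (0.019), Stard3nl (0.027), Col4a3bp (0.030), Mrpl41 (0.032) and Arrb1 (0.033). Agfg1 stood at 12.4 FPKM in KO and 13.2 FPKM in control retina at P14, against 11.01 FPKM in KO and 12.04 FPKM in control retina at P7. Among the 7 genes the median profile was that of Sqle, and the distance from it was 0.18 for Dhcr7, 0.26 for Hmgcs1, 0.37 for Cyp51, 0.46 for Idi1, 0.52 for Insig1 and 0.88 for Fdft1. Fdft1 was thus the farthest of the 7 from their median profile.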

How the data were processed

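RNA of retinas was sequenced as 36-base single reads from random-primed cDNA of about 200 bp with no strand marking stated, per the labels' protocols. The deposited FPKM values and their bounds come from the authors, and the tools listed in the submitters' processing notes are Cufflinks 2.1.1, TopHat2 2.0.8b and CASAVA 1.8.2 with build mm9. Annotation and options were not given in the sources used here. The files hold no counts. The fragments implied at low loci came out whole, to a tolerance of 0.1, in only 20.1% to 22.1% of cases. Values unrelated to counts would come out whole about as often, so no count test was run and the fragment totals are rough.

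Rows of a symbol were summed, levels marked as failed were set missing (16 symbols), and all differences are of log2(FPKM + 1), a scale that understates changes of low genes. Deposited starts count from 0 (8207 loci had the RefSeq length on that reading, 533 on the other) and are printed from 1. Counts over all genes used genes at 1 FPKM or more in either library, without 739 small RNAs and genes with loci under 300 bases. limma 3.58.1 (R 4.3.3), with its trend option and p-values adjusted by Benjamini-Hochberg, was fitted where 2 or more libraries reached 1 FPKM. The code was also run on simulated data, with noise set by the mean level alone and few genes changed. Real libraries differ from that setting, so the run does not bear on how reliable the calls are.

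Groups were taken from the sample titles, and the labels name no batch. Named were the 7 genes, Fezf2, Srebf2, Insig2, Npc1, listed sterol and lipid genes apart between the genotypes, the largest age changes, and the 5 nearest profiles; other age calls were named after their values were seen. Some genes that this rule names are not reported here, but the counts over lists include them. The members and lists were chosen with earlier results of these data known. Alternatives were another pseudocount, 2 scalings, other floors, wider bounds and other limma settings.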

Additional observations from a re-analysis of the deposited data

Results flagged for a closer look

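Of the 7 genes, 3 had genotype differences of opposite sign at the 2 ages. For Insig1 the log2 difference was -0.18 at P14 and 0.15 at P7, a change of -0.33. For Fdft1 it was 0.03 at P14 and -0.27 at P7, a change of 0.30. For Dhcr7 it was 0.01 at P14 and -0.21 at P7, a change of 0.22. With 1 library per group these changes were not tested, and the P14 values of Fdft1 and Dhcr7 turn negative on a TPM scale.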

How the results depend on the processing

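Of 362 values recomputed under other settings, 323 kept their call or, for counts, stayed within 1.5 times. Some of these could not change. Another pseudocount leaves the bounds as they were, and wider bounds leave the log2 differences as they were. The sign of some small uncalled differences turned, among them the limma age differences of Hmgcs1 and Dhcr7, which were 0.04 and 0.08 by the median ratio. With bounds 1.5 times as wide, the number of the 7 genes lower with bounds apart was 0 for KO against control at P14 (Hmgcs1 and Insig1 lost), 0 at P7 (Fdft1 lost) and 0 for P14 against P7 in KO (Hmgcs1 and Cyp51 lost). Over all genes the same setting left 364 higher and 415 lower between the genotypes at P14, against 954 and 1055, and 321 and 268 at P7, against 929 and 772. By the median ratio that number for P14 against P7 in the KO was also 0, and on a TPM scale it was 1 in the control (Cyp51). For the limma age term, the number of the 7 genes called higher was 0 with no filter, which left 1120 genes higher and 1602 lower in all, against 3972 and 5254. The number called lower was 1 with a pseudocount of 0.1 FPKM, 1 on a TPM scale and 1 with a filter at 5 FPKM, each time Cyp51. For the limma genotype term, the genes called higher were 2 by the median ratio, 28 with a filter at 5 FPKM and 7 with small RNAs and short loci kept, against 0. Those called lower were 15 on a TPM scale, 0 with no filter, 47 with a filter at 5 FPKM and 17 without the trend, against 31. None of the 7 genes was called for genotype under any of these settings. The limma fit compares KO with control within each age, and with 1 library per group no further pairing was possible. Leaving a library out leaves no residual degree of freedom. For the 7 genes the interval between the bounds, which is not centred on the level, had a half-width of 5.75% to 10.1% of it, and a difference at P7 of -14.3% (Dhcr7) still had overlapping bounds.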
